A study of Mus musculus with 2 samples.

Results

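Long noncoding RNAs are transcripts without a long open reading frame, and several of them act in the nucleus. This account follows 8 of them in mouse urothelial organoids: Malat1, Neat1, Gas5, Snhg1, Snhg8, H19, Meg3 and Kcnq1ot1, taken from a list of names. The matrices counted 31053 genes, among them 5 of the 8, and 3 of these 5 (Malat1, Neat1 and Kcnq1ot1) reached the minimum of 100 UMIs over both libraries that was set for counting differences. H19 and Meg3 were counted but stayed under 5 UMIs. Gas5, Snhg1 and Snhg8 were not analysed here. GENCODE M21, an annotation of the mouse genome build GRCm38, classes these 3 as processed transcripts, and the counted genes held 10 of the 790 genes of that class, against 5459 of the 5854 lincRNA (long intergenic noncoding RNA) genes and 0 of the 1507 snoRNA genes. The snoRNA host side of the group is therefore described through 18 other host RNAs, of which 8 were counted.

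The organoids are 3-dimensional cultures of urothelium, the epithelium that lines the bladder, grown in Matrigel from wild-type C57BL/6 mice aged 8 to 10 weeks. Proliferative (P) organoids stayed in complete medium throughout, and differentiated (D) organoids spent a first week in complete medium and a further week in medium lacking EGF, LY2157299 (which blocks TGF-β receptor signalling), Noggin, WNT3A and RSPO1. Single cells were profiled with the 10x Genomics 3′ chemistry, in which an oligo(dT) primer captures RNA at stretches of A and a unique molecular identifier (UMI) tags each captured molecule. With 1 library per condition, differences between the libraries could not be checked in replicates and none of the values below carries a test. The intervals cover counting error at 95% only and say nothing on the spread between cultures.

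Kept cells had over 800 detected genes and at most 12% mitochondrial UMIs. They numbered 6818 of 8194 barcodes in P, with 26681469 UMIs and a median of 3405.5 per cell, and 4896 of 6975 in D, with 20305621 UMIs and a median of 3227.5. Both libraries held urothelial cells by their markers: Krt5, a keratin of basal cells, had a UMI in 6741 cells of P and 4804 of D, and the uroplakin Upk1a, a protein of the luminal surface, in 196 and 2283. Of the markers of other cell types, the leukocyte genes Tyrobp and Cd3e, the fibroblast gene Col1a2 and 4 of 4 erythroid genes were at 0 in both libraries, while Dcn (1.499 CPM in P, 60.8 CPM in D) and Laptm5 (0.262 and 19.7 CPM) stood out in D. CPM is the number of UMIs of a gene in 1000000 UMIs. The share of UMIs from ribosomal protein genes was 37.2% in P and 21.2% in D. Over the 8939 genes that had 100 UMIs or more in both libraries, the log2 ratio of D over P had a median of 0.42, so ratios are also given relative to that shift. Both libraries used the same set of possible barcodes, and 6 barcodes occurred among the kept cells of both.

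Malat1 is an abundant RNA of nuclear speckles, the bodies in which splicing factors gather. Neat1, transcribed from the neighbouring locus, is the scaffold of paraspeckles, nuclear bodies built with the proteins Sfpq, Nono and Pspc1 that can retain RNAs and proteins. Gas5, Snhg1 and Snhg8 are hosts whose introns are processed into small nucleolar RNAs (snoRNAs), the guides for modification of ribosomal RNA, and whose spliced transcripts are often short-lived. H19, Meg3 and Kcnq1ot1 come from imprinted regions, where 1 parental copy is silent, and Kcnq1ot1 is the antisense transcript that silences its neighbours on the same chromosome. Because nuclear RNA can stay behind when a damaged cell loses cytoplasm, the share of such RNAs is often looked at beside the mitochondrial share of a cell.

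All 3 RNAs with usable counts lie on the minus strand. Malat1 (ENSMUSG00000092341) spans chr19:5795690-5802672 and Neat1 (ENSMUSG00000092274) chr19:5824708-5845478, both lincRNAs. Kcnq1ot1 (ENSMUSG00000101609) spans chr7:143203458-143296549 in 1 exon of 93092 bases, inside Kcnq1 and on its opposite strand. Malat1 and the longest of the 4 annotated Neat1 transcripts share features of their 3′ ends, which are not made by ordinary polyadenylation. In both, a pair of U-rich stretches and an A-rich stretch are known to fold into a triple helix that protects the end. These ends are shown because they are what the pair has in common and because oligo(dT) capture starts from runs of A. Each is part of the GENCODE M21 transcript (GRCm38, minus strand, 5′ to 3′), and capitals mark the 3 stretches of at least 10 bases that both hold in the same order, 40 bases in all.
Malat1, chr19:5795968-5796082: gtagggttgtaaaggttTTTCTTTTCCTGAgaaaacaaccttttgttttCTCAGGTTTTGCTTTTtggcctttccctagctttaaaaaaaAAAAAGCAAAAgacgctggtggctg
Neat1, chr19:5824708-5824822: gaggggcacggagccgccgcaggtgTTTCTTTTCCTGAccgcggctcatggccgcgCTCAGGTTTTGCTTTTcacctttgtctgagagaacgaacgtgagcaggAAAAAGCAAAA

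Of 5459 counted lincRNA genes, taking the longest transcript of each, 2 held the first stretch, TTTCTTTTCCTGA, 2 the second, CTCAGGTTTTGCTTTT, and 22 the third, AAAAAGCAAAA, searched on the transcript strand only; the 2 that held all 3 were Malat1 and Neat1 themselves. In Malat1 the third stretch begins with the last bases of a run of 12 A, which ends 298 bases before the annotated end, and the bases after that stretch begin the small tRNA-like RNA that is cleaved from the Malat1 precursor. This was the only run of at least 10 A in the 6983 bases of Malat1. The longest Neat1 transcript had none in 20771 bases, and its longest run was 7 A. The ends of the other annotated Neat1 transcripts were not examined. UMIs were counted per gene, so they do not separate the transcripts of Neat1. Kcnq1ot1 had 10 such runs, the longest of 41 A, which lies 23487 bases before its annotated end and is shown in capitals because it is the longest in the 3 RNAs (GRCm38, minus strand).
Kcnq1ot1, chr7:143226925-143227005: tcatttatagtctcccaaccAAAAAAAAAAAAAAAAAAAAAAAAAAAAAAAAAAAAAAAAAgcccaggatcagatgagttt

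Among the counted lincRNA genes, of median length 977 bases, 7.60% had a run of at least 10 A in their longest transcript, and among protein-coding genes, of median length 2882 bases, 15.8% had one. Read positions were not analysed here, so which of these stretches was primed is not known from these counts.

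The snoRNA hosts are known for starts in a run of pyrimidines, as in genes of ribosomal proteins. RefSeq promoters (GRCm38.p6) were found for the 3 named hosts and for 15 of the 18 others. The 50 bases around the annotated start are shown for the named hosts and for the pair of counted hosts with the longest runs, with capitals for the run of C and T that holds the start.
Gas5, plus strand, chr1:161035141-161035190: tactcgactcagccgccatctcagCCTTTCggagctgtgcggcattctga
Snhg1, plus strand, chr19:8723462-8723511: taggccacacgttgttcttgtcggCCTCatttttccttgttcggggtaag
Snhg8, minus strand, chr3:123508312-123508361: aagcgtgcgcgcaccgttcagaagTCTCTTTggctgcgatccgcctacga
Snhg12, plus strand, chr4:132308653-132308702: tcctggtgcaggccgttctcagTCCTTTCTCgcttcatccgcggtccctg
Snhg18, minus strand, chr15:32244638-32244687: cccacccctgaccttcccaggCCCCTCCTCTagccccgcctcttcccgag

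A run of at least 6 C or T over the annotated start was found in 6 of the 18 hosts (33.3%), in 19 of 57 ribosomal protein genes (33.3%) and in 8.48% of 27025 genes, read on the strand of the gene. For a gene with more than 1 annotated start, the start with the longest run was taken, in each of these sets and in the sequences shown. Gas5, with a run of 6, had 2 annotated starts. Annotated starts may lie a few bases from the used ones, and a start without such a run says only that these letters are not there.

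Neat1 was the member that was at least 2-fold higher in P, and no member was at least 2-fold higher in D. Of the 10719 genes with at least 100 UMIs, 13.4% were higher in D by 2-fold or more and 4.73% were higher in P. With 3 members to count, 1 in P and 0 in D give no share that could be read against that background.

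Neat1 had 26773 UMIs in P, or 1003 CPM (991 to 1016), and 9215 UMIs in D, or 454 CPM (445 to 463). The log2 ratio was -1.14 (-1.18 to -1.11), or -1.57 relative to the median gene, so the level of Neat1 was lower in D. It sat at percentile 4.07 of the log2 ratios of all 10719 genes, counted from the lowest ratio. At equal depth, with each cell thinned to 2100 UMIs, 72.9% of 6638 cells in P and 55.8% of 4417 cells in D held a Neat1 UMI. Unthinned, the shares were 84.1% and 70.8%. No cell type known to lack these RNAs was among the cells, so the part of free RNA in such shares was not tested.

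Malat1 was the gene with the most UMIs in both libraries, with 1230672 UMIs in P and 1181956 in D. UMIs count captured molecules, so levels were not divided by length. It took 4.61% of all UMIs in P, or 46125 CPM, and 5.82% in D, or 58208 CPM, and made up 83.8% and 87.9% of all lincRNA UMIs. The log2 ratio was 0.34 (0.33 to 0.34), which is below the shift of the median gene and turns to -0.086 relative to it. Scaled to UMIs that are neither mitochondrial nor from ribosomal protein genes, Malat1 stood at 81121 per 1000000 in P and 81177 in D, so its level was higher in D on the scale of all UMIs and not on this one. Malat1 sat at percentile 43.6 of all genes.

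Every kept cell held Malat1 UMIs, 6818 of 6818 in P and 4896 of 4896 in D. At 2100 UMIs per cell the median cell held 86 Malat1 UMIs in P and 127 in D. The span from the 10th to the 90th percentile was 42 to 156 in P and 65 to 200 in D, so the cells of both libraries overlapped over most of their range. The variance between cells was 31.6 times the mean in P and 23.5 times the mean in D, where counting alone would give a ratio of 1. Cells with Malat1 under 1% of their UMIs numbered 79 in P (1.16%) and 51 in D (1.04%).

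**Figure D1:**
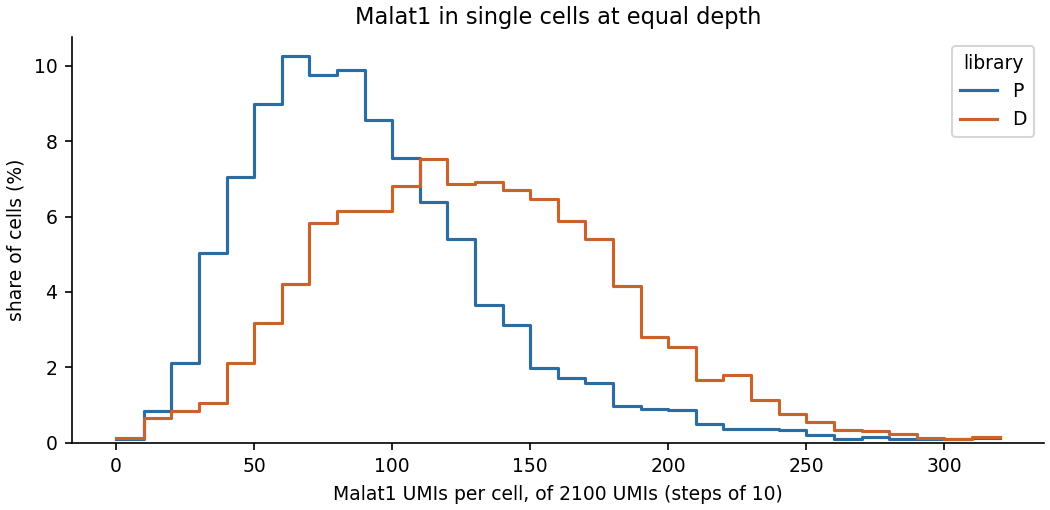
Malat1 UMIs per cell after thinning each cell to 2100 UMIs (x axis, steps of 10), as the share of cells in percent (y axis), for 6638 cells of P and 4417 cells of D. The medians are 86 in P and 127 in D on this scale of all UMIs, and both distributions are broad and overlap.

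Kcnq1ot1 had 2630 UMIs in P, or 98.6 CPM (94.8 to 102), and 3802 in D, or 187 CPM (181 to 193). The log2 ratio was 0.93 (0.85 to 0.998), under the 2-fold limit, and 0.50 relative to the median gene. After thinning, 17.9% of cells in P and 29.0% in D held a UMI of it; unthinned, 27.1% and 43.3% did. Kcnq1, the potassium channel gene on the other strand, was called higher in D, at 5.85 CPM in P and 13.2 CPM in D. Whether counting used the strand is not stated in the sources used here, so reads of the overlapping pair cannot be told apart with certainty.

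H19 had 0 UMIs in both libraries, also over all deposited barcodes. In kept cells the upper limit of its interval was 0.138 CPM in P and 0.182 CPM in D. Ratios between the libraries were given only above a set floor of 3 UMIs, or 0.112 CPM in P and 0.148 CPM in D. Meg3 had 2 UMIs in each library, at or under that floor of 3 UMIs, and no ratio is given. Their neighbours at both loci were as low: Igf2, the growth factor gene next to H19, had 1 and 0 UMIs, and Dlk1, next to Meg3, had 2 and 3.

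Of the coding genes of imprinted regions, 7 of 15 had at least 100 UMIs, and 3 of the 7 passed the 2-fold limit, all of them higher in D. The list median log2 ratio was 0.30. Of all 10719 genes, 13.4% passed the limit towards D and 4.73% towards P, with a median of 0.41. Cdkn1c, a cell cycle inhibitor in the cluster that Kcnq1ot1 silences, had 3.71 CPM in P and 16.1 in D, a log2 ratio of 2.12 (1.79 to 2.46). Plagl1, a zinc finger transcription factor, had a log2 ratio of 1.31 (1.02 to 1.60), and Kcnq1 of 1.17 (0.88 to 1.47). Phlda2, also of the Kcnq1ot1 cluster, went the other way with a log2 ratio of -0.76 (-1.02 to -0.50), within 2-fold, and Slc22a18 had 0.30 (0.06 to 0.55), which turned to -0.03 when mitochondrial and ribosomal protein genes were left out of the scaling. With that scaling Cdkn1c, at 1.78, kept its 2-fold difference, and Plagl1 (0.97) and Kcnq1 (0.84) were within 2-fold. Genes of that cluster thus stood on both sides of the median gene.

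Of the counted snoRNA hosts, 4 of 7 with enough UMIs were lower in D. Among these 7 hosts with at least 100 UMIs, 3 were at least 2-fold higher in P and 1 in D, with a list median of -0.54. Over all genes tested the median was 0.41, with 4.73% at least 2-fold higher in P and 13.4% in D. Epb41l4aos had 202 CPM in P and 52.0 in D, a log2 ratio of -1.96 (-2.06 to -1.86). Snhg12 had 74.4 and 30.6 CPM (log2 ratio -1.28, -1.41 to -1.15), and Snhg18 had 115.4 and 56.6 CPM (log2 ratio -1.03, -1.13 to -0.93), just past the limit of 2-fold and just short of it as a mean over cells (-0.97). Snhg6 had 40.7 and 28.02 CPM, a log2 ratio of -0.54. Snhg9 and Snhg20 both had a log2 ratio of 0.24, which turned to -0.093 when mitochondrial and ribosomal protein genes were left out of the scaling. Snhg10 was the exception, at 1.01 and 3.99 CPM (log2 ratio 1.98, 1.33 to 2.66), from 27 UMIs in P and 81 in D. Ribosomal protein genes had a median log2 ratio of -0.83, and 9 of 77 were at least 2-fold higher in P, against 4.73% of all genes.

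The genes of the proteins that work with these RNAs stayed within 2-fold in RNA level, and no protein was measured. This held for the genes of 7 of 7 paraspeckle proteins, 8 of 8 nuclear speckle proteins and 8 of 8 proteins of snoRNA particles. Of all 10719 genes tested, 8774 were also within 2-fold, so short lists inside that limit do not stand apart. The median log2 ratios of the lists were 0.35, 0.39 and 0.29, near the 0.41 of all genes. Of the paraspeckle proteins that bind Neat1, Nono had 133 CPM in P and 138 in D, and Sfpq 80.8 and 126. Son, a core protein of nuclear speckles, had 225 and 404 CPM, and Srsf3, a splicing factor of the same bodies, 103 and 200. Fbl (fibrillarin), the methyltransferase of snoRNA particles, had 63.4 and 67.0 CPM.

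Among 8 other long noncoding RNAs with at least 100 UMIs, 1 was at least 2-fold higher in D and 2 in P. Ftx, from the X inactivation centre, had 1.84 CPM in P and 4.19 in D, a log2 ratio of 1.19 (0.66 to 1.73), which was within 2-fold relative to the median gene (0.77) and with mitochondrial and ribosomal protein genes left out of the scaling (0.85). Pvt1, the neighbour of Myc, had 6.18 and 1.43 CPM, a log2 ratio of -2.11 (-2.74 to -1.54), and Hotairm1, from the HoxA cluster, 15.3 and 4.28 CPM, a log2 ratio of -1.84 (-2.19 to -1.502). Over all 151 lincRNA genes with enough UMIs, 23 passed the limit towards D and 18 towards P, with a median of 0.24. Of all 10719 genes, 13.4% passed it towards D and 4.73% towards P.

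**Figure D2:**
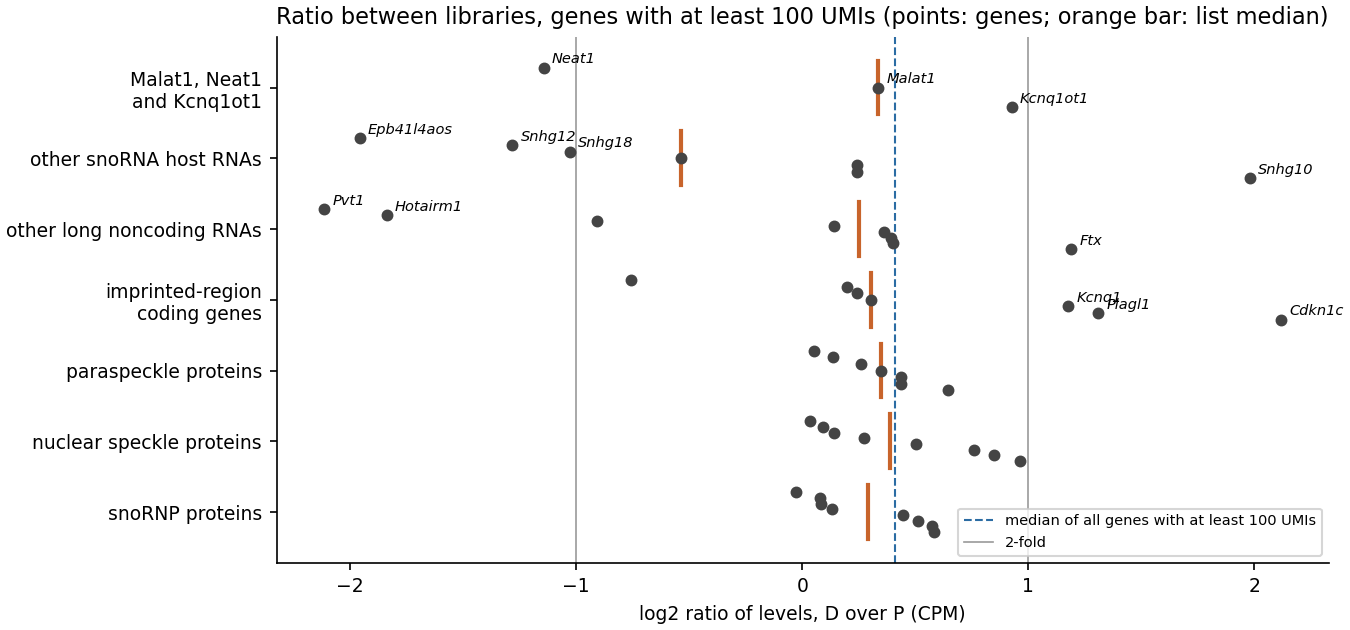
Log2 ratio of levels (D over P, x axis) for genes with at least 100 UMIs, by list (rows): points are genes, orange bars list medians, the dashed line the median of all 10719 genes (0.41) and grey lines a 2-fold difference. Neat1 at -1.14 and 3 snoRNA hosts lie left of the grey line, while the 3 lists of partner proteins lie inside both lines.

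Cell states within each library were taken from clusters made without the members among the features, and a marker is called raised where its level was above that in the other cells of the library. P fell into 4 clusters. P0 (2594 cells) had 5 of 7 basal markers raised and was led by Ctla2a and Nbl1. P1 (2456 cells) had 9 of 9 intermediate markers raised and was led by Sprr3, Sprr2f and Cnfn. P2 (1429 cells) was led by Fmo2 and Mmp7, and P3 (339 cells) had 11 of 12 proliferation markers and 6 of 7 basal markers raised. D fell into 3: D0 (2781 cells), led by Krt1 and Reg1, D1 (1307 cells), with 6 of 7 basal markers raised and led by Acta2 and Cav1, and D2 (808 cells), with Upk3a and Upk3b among its 10 leading genes and 5 of 5 luminal markers raised. Leading genes named here were chosen after their values were seen.

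Malat1 had its highest level in P in P1, at 53828 CPM, followed by P0 at 41953, P2 at 38096 and P3 at 32109. In D it was highest in D1, at 72684 CPM, followed by D0 at 54897 and D2 at 53654. The intervals of these levels did not overlap within a library. The clusters with most basal markers raised thus stood on different sides: P0 and P3 together (2933 cells) had 40346 CPM against 49293 in the other cells of P, a log2 ratio of -0.29 (-0.29 to -0.28), and D1 had 72684 against 54551, a log2 ratio of 0.41 (0.41 to 0.42). With UMIs of neither mitochondrial nor ribosomal protein genes as the scale, the ratios were -0.24 and 0.39. D1 was also the cluster of D with the most RNA of the fibroblast markers, 232 CPM against 24.2 in D0 and 7.97 in D2. Most of this RNA was Dcn over the whole of D (60.8 of 62.5 CPM), and their part in the level of Malat1 there was not tested. The proliferating cluster P3 was the lowest of the 7 for Malat1, also at equal depth, with a median of 64 Malat1 UMIs of 2100, against 79 in P0, 105 in P1 and 76 in P2.

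Neat1 was highest in P1 as well, at 1208 CPM, with 1029 in P0, 610 in P2 and 508 in P3. In D it was highest in D0, at 517 CPM, with 386 in D1 and 351 in D2. P0, P1 and P2 thus lay above all 3 clusters of D, while the interval of P3 (473 to 545) overlapped that of D0 (504 to 530). The intervals of D1 (367 to 406) and D2 (334 to 369) lay next to each other, with D1 the higher.

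Kcnq1ot1 was highest in the clusters with most basal markers raised, in both libraries. It had 152 CPM (144 to 161) in P0 and 143 (124 to 163) in P3, whose intervals overlapped, 105 in P2 and 55.7 in P1. In D it had 265 CPM in D1, 185 in D0 and 123 in D2. The log2 ratio of the basal side over the other cells was 1.11 (0.99 to 1.22) in P and 0.66 (0.56 to 0.76) in D. Depth ran the other way: cells of P1 and D2 had the most UMIs, with medians of 4258.5 and 4512.5, against 2840.5 in P0 and 2671 in D1. After thinning, 25.4% of cells in P0 and 9.31% in P1 held a Kcnq1ot1 UMI, and 36.9% in D1 and 22.6% in D2.

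**Figure D3:**
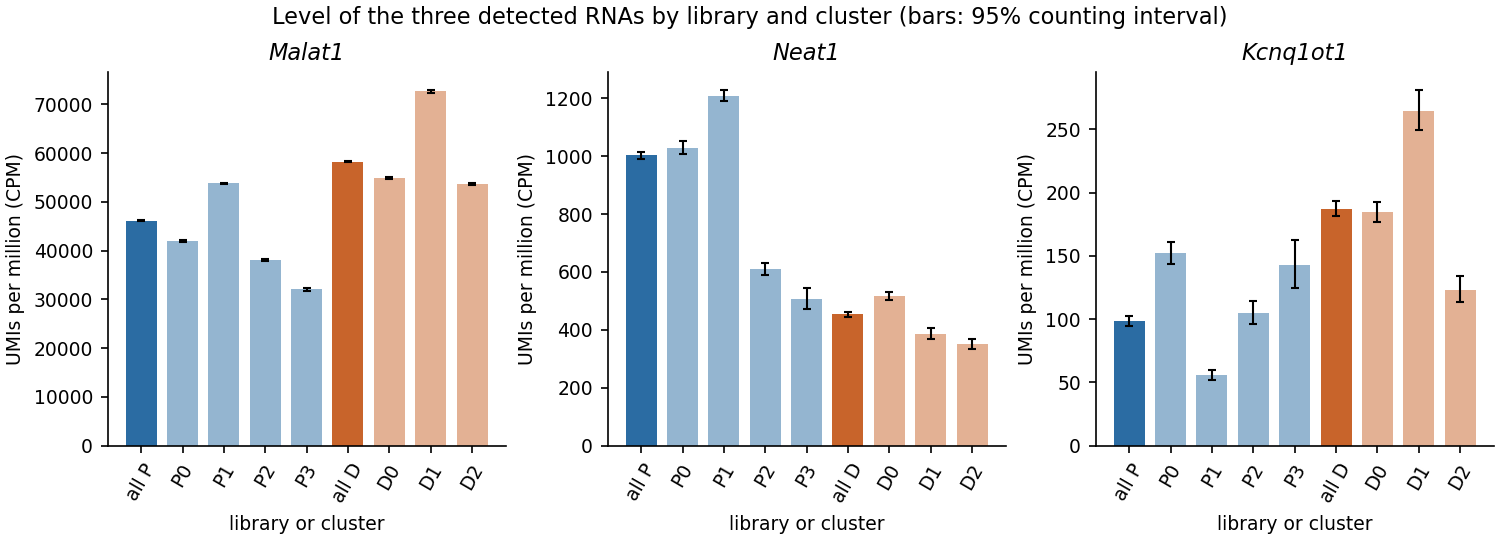
Level of Malat1, Neat1 and Kcnq1ot1 (y axes, CPM, from 0) over all kept cells of a library (solid bars) and in each cluster (pale bars), with 95% counting intervals. Within P and D, Malat1 is highest in P1 and D1, Neat1 in P1 and D0, and Kcnq1ot1 in P0 and D1.

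Of the counted hosts, Epb41l4aos had 319 CPM in P0, 205 in P2, 154 in P3 and 132 in P1, against 44.3 to 55.5 CPM over the 3 clusters of D. All 4 clusters of P thus lay above all 3 of D. Snhg12 was also highest in P0, at 139 CPM, with 72.1 in P2, 68.7 in P3 and 34.4 in P1. Its highest level in D, 48.1 CPM in D1, was above that of P1, with 27.2 CPM in D0 and 23.5 in D2. Snhg18 had its highest level in P1, at 151 CPM, where Epb41l4aos and Snhg12 had their lowest in P.

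The genes closest in pattern were sought over the 7 clusters, among 7228 genes with at least 500 UMIs, by Pearson's r of log2(CPM + 1). For Malat1 they were Prrc1 (r = 0.997), Dsg3 (0.987) and Vps37a (0.975). For Kcnq1ot1 they were Evi5 (0.991), Zfp553 (0.991) and Nufip1 (0.990), and for Neat1 they were Clybl (0.932), Ifrd1 (0.922) and Selenbp1 (0.918). Malat1 and Neat1 had r = -0.25 with each other, and Neat1 and Kcnq1ot1 r = -0.63. These are descriptions over 7 points that share 2 libraries. Over thinned cells within a library, Malat1 and Neat1 had r of 0.45 in P and 0.20 in D. Their sign over the clusters was thus not that within either library. For Neat1 and Kcnq1ot1, r over thinned cells was -0.024 in P and 0.038 in D.

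When the libraries were integrated into joint clusters, Neat1 was lower in D in 4 of 4 clusters and Kcnq1ot1 higher in D in 4 of 4. In joint cluster J0 (3688 cells of P, 2947 of D) Neat1 had 999.8 CPM in P and 503 in D, a log2 ratio of -0.99 (-1.03 to -0.95). In J1 (2583 and 1260 cells), with more RNA of basal markers than J0 (8482 CPM in P and 16706 in D), it had 1022 and 391 CPM, a ratio of -1.38 (-1.46 to -1.31). In J2 (183 and 666 cells), with the most uroplakin RNA, it had 1821 and 339 CPM, a ratio of -2.42 (-2.54 to -2.31). J3, the cluster with the most proliferation RNA, held 23 cells of D, and its Neat1 ratio was -1.01 (-1.57 to -0.50). In 4 of 4 joint clusters the cells of D held more uroplakin and basal marker RNA than those of P. The uroplakin CPM of P and D were 16.8 and 830 for J0, 4.34 and 59.0 for J1, 251 and 4333 for J2, and 8.33 and 143 for J3. For basal markers they were 4940 and 7038 for J0, 1547 and 2907 for J2, and 7421 and 19141 for J3. Ratios within joint clusters thus compare cells that differ in these markers, and the part of that difference was not tested.

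Malat1 did not move one way across the joint clusters. Its log2 ratio was 0.22 in J0, 0.81 in J1 and 0.37 in J3, but -0.79 (-0.80 to -0.78) in J2, where the cells of P had 98168 CPM and those of D 56725. Relative to the median gene of each joint cluster the ratio turned to -0.23 in J0 and was 0.29 in J1, -0.78 in J2 and 0.72 in J3. Malat1 was then higher in D in 2 of the 4 clusters. That median rested on 7687 genes in J0, 4669 in J1, 922 in J2 and only 151 in J3. In J3 it was -0.35, against 0.44 in J0, 0.52 in J1 and -0.0099 in J2, so the value of J3 has a narrow reference. The share of ribosomal protein genes was 22.5% in the P cells of J2 and 16.8% in its D cells, and 40.6% and 21.5% in J1. For Kcnq1ot1 the ratio was 1.32 in J0, 0.81 in J1 and 2.04 in J2, where P had 25 UMIs, and in J3 its interval (-0.12 to 1.14) included 0. The snoRNA host Epb41l4aos, like Neat1, was lower in D in 4 of 4 joint clusters, from -1.31 (-1.69 to -0.91) in J2 to -2.63 (-2.85 to -2.42) in J1.

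**Figure D4:**
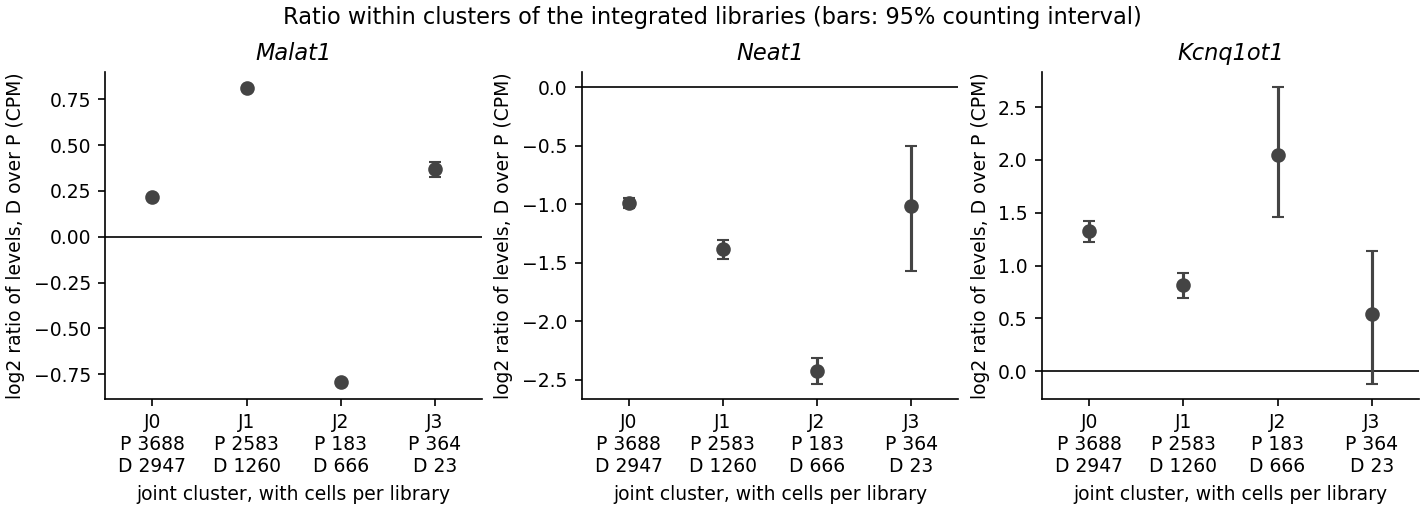
Log2 ratio of levels (D over P, y axes) of Malat1, Neat1 and Kcnq1ot1 within each of the 4 joint clusters (x axis, with the cells of each library), with 95% counting intervals. Neat1 lies below 0 in every cluster and Kcnq1ot1 above 0, while Malat1 is at -0.79 in J2 and above 0 in the other 3.

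To see how the RNAs vary with the mitochondrial share of a cell, levels were expressed as CPM of the non-mitochondrial UMIs, so that the share itself does not dilute them. Within the kept cells Malat1 was highest at the lowest share. In P it was at 68477 in 640 cells with up to 3%, 48142 in 2997 cells with 3 to 6%, 45534 in 2837 cells with 6 to 9% and 53582 in 344 cells with 9 to 12%, so the bins at both ends stood above the middle ones. The log2 ratio of the highest over the lowest bin was -0.35 (-0.37 to -0.34). In D the bins had 118187, 75933, 58005 and 59271. The ratio there was -0.996 (-1.04 to -0.95), but its lowest bin held only 14 cells. With the bin of 3 to 6% as the lowest, an alternative chosen after seeing the data, the ratio was -0.36 in D and turned to 0.15 in P.

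At mitochondrial shares of 20 to 40%, past the limit of 12%, Malat1 stood above every kept bin in both libraries. Among barcodes with over 800 genes it stood at 82871 in P for shares of 12 to 20% (71 barcodes) and 198322 for 20 to 40% (20 barcodes). In D it stood at 116708 (192 barcodes), about the level of the lowest kept bin, and at 270458 (106 barcodes), or 27.0% of all non-mitochondrial UMIs. Ribosomal protein genes went the other way, from 40.9% of non-mitochondrial UMIs in the lowest bin of P to 13.0% at 20 to 40%, and in D from 20.1% to 4.88%.

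Along the kept bins Neat1 was highest at the lowest share in P and at the highest share in D. In P it was at 2267 CPM in the lowest bin, 1070 and 825 in the middle ones and 1109 in the highest, a log2 ratio of highest over lowest of -1.03 (-1.12 to -0.95). In D it was at 348, 469, 482 and 568, with 12 UMIs behind the first value. With the kept cells split into quartiles by mitochondrial share, which avoids thin bins, the log2 ratio of the highest over the lowest quartile for Neat1 was -0.92 (-0.97 to -0.87) in P and 0.16 (0.07 to 0.24) in D. For Malat1 these ratios were -0.26 in P and -0.53 in D, and for Kcnq1ot1 -0.64 in P and -0.74 in D.

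The pattern depended on the cluster. For the bins of 9 to 12% over 3 to 6%, Malat1 had a log2 ratio of 0.32 in P0, 0.14 in P2 and -0.20 in P1, and of 0.55 in D1, -0.37 in D0 and -0.38 in D2. Both clusters with most basal markers and at least 20 cells in both bins, P0 and D1, were thus on the side of higher Malat1 at the higher share, though with 26 and 41 cells in the higher bin, and P0 turned to -0.28 when the lowest bin was the base. Across thinned cells, Malat1 as a share of non-mitochondrial UMIs had Pearson's r of -0.13 in P and -0.19 in D with the mitochondrial share, and of -0.55 and -0.42 with the ribosomal protein share, over 6638 and 4417 cells. Malat1 and the ribosomal protein share are parts of one total, and all of these are descriptions within single libraries.

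**Figure D5:**
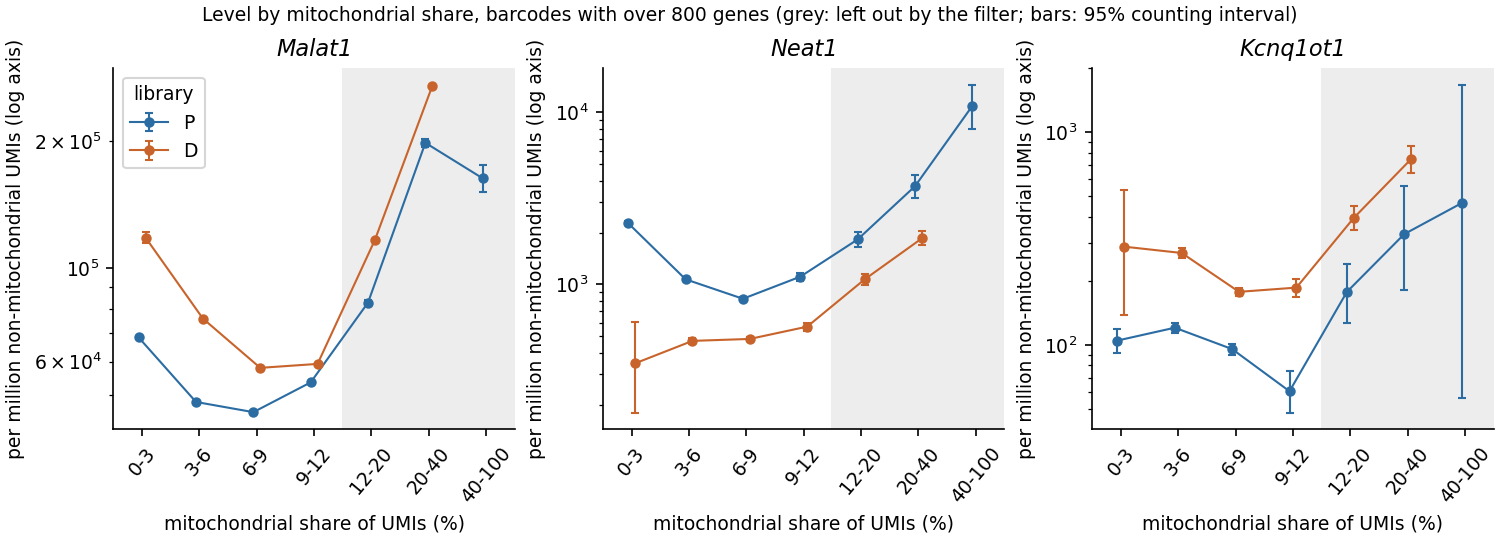
Level of Malat1, Neat1 and Kcnq1ot1 in CPM of the non-mitochondrial UMIs (y axes, log scale) by mitochondrial share of the barcode's UMIs (x axes, percent) in barcodes with over 800 genes, with 95% counting intervals; grey marks shares that the filter left out. Malat1 reaches 198322 in P and 270458 in D at 20 to 40%, above every kept bin.

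Depth moved with Malat1 differently in the libraries. From the quartile of cells with the fewest UMIs to that with the most, Malat1 was at 38304, 44730, 49152 and 47969 CPM in P, and at 63995, 65030, 65431 and 50602 CPM in D. The dissociation response genes, such as immediate early genes, had a summed level of 1892 CPM in P and 3723 CPM in D. Of these 15 genes, 7 were at least 2-fold higher in D, against 13.4% of all genes, and their median was 0.98. Their part in the differences between the libraries was not tested.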

How the data were processed

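Per the study's methods and the submitters' processing notes, the authors ran bcl2fastq 2.19.0 and Cell Ranger 3.0.2 against GRCm38/mm10. The deposited matrices hold UMI counts per gene and barcode, whole numbers without normalization. The members, lists and tests were chosen with earlier results of these data known.

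From the counts, UMIs were summed over kept cells and expressed as CPM. Intervals at 95% are exact Poisson for levels, Clopper-Pearson for shares and exact conditional binomial for ratios. UMIs are molecules, but intervals and floors cover counting error only. With 1 library per group no test was run. Genes needed 100 UMIs in the libraries together and a 2-fold difference to be counted as higher, with 0.5 UMI added for ranking. The calls were also run on simulated counts. These held set changes and counting error only, without spread between cultures, so they bear on the arithmetic of the calls alone. The gene lists are the named RNAs, other snoRNA hosts, other long noncoding RNAs, coding genes of imprinted regions, paraspeckle, speckle and snoRNA particle proteins, dissociation response genes and markers. Named were the 8 RNAs, list genes with at least 20 UMIs, and the 3 genes closest in pattern to each; Igf2, Dlk1 and markers under that minimum were named after their values were seen. Clusters came from Seurat 5.3.0 under R 4.3.3 (2000 variable features, 25 components in P and 21 in D, resolution 0.2), and jointly by canonical correlation anchors (25 dimensions, resolution 0.17), without the members among the features. The basal side took clusters with most basal markers raised and no luminal marker among the 10 leading genes. No doublet caller was run. Other steps used Python 3.11.15, numpy 2.4.6, scipy 1.17.1 and pandas 2.3.3. Alternatives covered scaling, cell filters, the highest-UMI cells, minimum counts, resolution and denominators.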

Additional observations from a re-analysis of the deposited data

Results flagged for a closer look

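The basal side of the clusters differed between the libraries in its level of Malat1. The log2 ratio over the other cells was -0.29 in P and 0.41 in D, so that D minus P was 0.70, and this difference was not tested, since there was 1 library per condition. Dcn had its highest level in the D cluster concerned, and its part was not tested. Of the 6 fibroblast markers, Dcn was the only 1 with at least 100 UMIs.

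The log2 ratio of Neat1 between the quartiles of kept cells with the highest and the lowest mitochondrial share was -0.92 in P and 0.16 in D, a difference of 1.08 that was not tested either.

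Pooled within a library, the barcodes that the filter left out held more of all 3 RNAs than the kept cells, in CPM of the non-mitochondrial UMIs. They include barcodes of at most 800 genes. Malat1 stood at 74903 in the 1376 left-out barcodes of P, against 49023 in kept cells, and at 222466 in the 2079 of D, against 62680. Neat1 stood at 1668 in P, against 1066 in kept cells, and at 1621 in D, against 489. Kcnq1ot1 stood at 145 in P, against 105, and at 554 in D, against 202. The log2 ratios of left-out over kept were 0.61, 0.65 and 0.47 in P and 1.83, 1.73 and 1.46 in D for Malat1, Neat1 and Kcnq1ot1. Not all left-out barcodes shared this excess. In P, 452 of them with mitochondrial shares of 3 to 6% had 35934.5 for Malat1 and 927 for Neat1. Another 249 with 6 to 9% had 35228 and 902, all below the kept cells. In D, Malat1 in those at 3 to 6% and 6 to 9% was at 52682 and 44988.5, also below the kept cells.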

How the results depend on the processing

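Each condition had 1 library, so spread between cultures is unknown, and leaving out a replicate was not possible. No paired analysis was possible because each group holds a single sample. Depth limits H19 and Meg3, and the lowest mitochondrial bin of D, with 14 cells. With all deposited barcodes, the members at least 2-fold higher in D numbered 1 (Kcnq1ot1, log2 ratio 1.10) in place of 0, and those in P 0 (Neat1, -0.93) in place of 1. Over the alternatives the log2 ratio of D over P ran from -1.57 to -0.93 for Neat1, from 0.50 to 1.10 for Kcnq1ot1 and from -0.086 to 0.59 for Malat1, whose sign turned (-0.086) under scaling by the median ratio. The scaling also moved the split of all 10719 genes: 1438 were higher in D and 507 in P, against 694 and 818 when mitochondrial and ribosomal protein genes were left out of the scaling and 602 and 924 with the median ratio. With a minimum of 20 UMIs, 1983 and 872 genes were called. The other host and long noncoding RNAs at least 2-fold higher in D numbered 2, and 1 under both other scalings, with over 1000 genes and at most 10% mitochondrial UMIs, and without the 5% of cells with the most UMIs. Ftx was the one lost under the scalings, and Snhg10 under the cell filters, with fewer than 100 UMIs left. Those higher in P numbered 5, and 6 under both scalings (with Mir17hg) and with a minimum of 20 UMIs (with Nespas), and 4 without the 5% of cells with the most UMIs (without Snhg18).

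The Malat1 log2 ratio of the highest over the lowest kept mitochondrial bin in P (-0.35) was -0.48 with all UMIs as the denominator, -0.54 without ribosomal protein genes, -0.26 for quartiles, -0.29 for thinned cells, -0.50 as the mean within 2 clusters and 0.15 with 3 to 6% as the lowest bin, chosen after seeing the data. In D (-0.996) it was -1.12 with all UMIs, -0.53 for quartiles, -0.94 for thinned cells and -0.36 with 3 to 6% as the lowest bin, also chosen after seeing the data; the mean within clusters could not be computed, as 0 clusters had 20 cells in both bins. The basal side ratio of Malat1 in P (-0.29) was -0.24 without mitochondrial and ribosomal protein genes, -0.30 for thinned cells and -0.30 without the 5% of cells with the most UMIs. In D (0.41) it was 0.39 at a resolution of 0.4, 0.39 without mitochondrial and ribosomal protein genes, 0.35 for thinned cells and 0.30 without the 5% of cells with the most UMIs. The causes of these shifts were not tested. Clustering without the genes that differed 2-fold left the counts of joint clusters in each direction as they were on the scale of CPM: 4 of 4 with Neat1 higher in P, 3 with Malat1 higher in D and 4 with Kcnq1ot1 higher in D. The values moved: J2 then held 887 cells of P in place of 183, Malat1 there had a log2 ratio of -0.36 in place of -0.79, and Neat1 in J0 -0.65 in place of -0.99.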

Other observations

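Among barcodes with at most 800 genes, 1216 in D had a mitochondrial share of 20 to 40%. Malat1 stood there at 312841 CPM of the non-mitochondrial UMIs, Neat1 at 2205 and Kcnq1ot1 at 666, with 4.58% for ribosomal protein genes. The corresponding 213 barcodes of P held 297384, 4538 and 272, with 9.30% for ribosomal protein genes. Neat1 was thus higher in the P barcodes of this kind than in those of D, as in the kept cells, and Kcnq1ot1 lower.

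Across thinned cells Malat1 and Neat1, both as shares of non-mitochondrial UMIs, had Pearson's r of 0.45 in P (6638 cells) and 0.20 in D (4417 cells), a description over cells of 1 library each.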
